A study of Mus musculus with 16 samples.

Results

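The matrix metalloproteinases *Mmp9*, *Mmp12*, *Mmp13*, *Mmp14*, *Mmp19* and *Mmp27*, the tissue inhibitors of metalloproteinases *Timp1*, *Timp2* and *Timp3*, and fibronectin (*Fn1*) were followed as 1 family in bone marrow-derived dendritic cells (BMDCs). These 10 genes were taken by symbol from the 23356 genes of the expression table, and each symbol named 1 row. They had been chosen by their FPKM levels in these same conditions, so all counts and differences below are descriptions. RNA was sequenced from 16 samples, 2 for each of 8 conditions: BMDCs of 4 genotypes that were left untreated or stimulated with c-di-GMP, a bacterial cyclic dinucleotide that binds the receptor STING, at 25 μg/ml per the labels for 18 h. The legends of the study give a higher dose. The genotypes were wild-type C57BL/6, *Tmem173*-/- (the gene of STING), *Irf1*-/- and the double knockout *Irf3/7*-/-, which lacks the interferon regulatory factors IRF3 and IRF7. All deletions were germline, so cells of every kind in a culture carried them from the start of the culture. Marrow of sex-matched mice aged 6 to 12 weeks was grown in GM-CSF and IL-4, each at 10 ng/ml, for 6 days, and the floating and loosely attached cells were used without sorting. The cultures are therefore mixtures, and fewer cells of a type and less RNA per cell cannot be told apart.

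Matrix metalloproteinases are zinc-dependent proteinases that are made as inactive precursors and cut collagens, elastin, laminins, fibronectin and many cytokines and receptors. MMP14 sits in the cell membrane, most of the others are secreted, and the TIMP proteins block their active sites by binding them one to one. In dendritic cells and macrophages these enzymes are known for opening basement membranes during migration and for releasing or destroying signalling proteins at the cell surface. Fibronectin is a large adhesive glycoprotein of the matrix that cells hold through integrins, and it is a substrate of several of these enzymes.

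Levels are FPKM, fragment counts scaled by transcript length and by the size of the library, which can be set against each other between genes. The authors combined the samples of a condition before deposition, so each gene has 1 FPKM per condition with an interval that Cuffdiff gave it, in brackets below, and neither a spread between replicates nor a p-value from one can be computed from this table. A gene was tested when it reached 1 FPKM in one of the conditions compared. It was called, and is said below to be higher or lower or to have risen or fallen, when it differed by more than 2-fold on the log2(FPKM + 0.1) scale and the intervals did not overlap. Log2 differences are given with a standard error (SE) derived from the intervals.

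The targeted genes were checked first. *Tmem173* was at 8.97 and 7.49 FPKM in untreated and treated *Tmem173*-/- BMDCs and between 77.0 and 118 FPKM elsewhere. *Irf1* stood at 25.9 and 116 FPKM without and with c-di-GMP in *Irf1*-/- BMDCs, where wild-type BMDCs had 149 and 245 FPKM. In *Irf3/7*-/- BMDCs *Irf7* was at 1.07 and 4.97 FPKM (wild-type, 15.2 and 687 FPKM), and *Irf3* was at 7.74 and 20.2 FPKM (wild-type, 19.9 and 15.8 FPKM). The treated *Irf1*-/- and *Irf3/7*-/- values of *Irf1* and *Irf3* thus do not by themselves show a loss, and a value for a whole gene also counts exons outside a deletion. Summed dendritic cell markers (12 genes, 1105 to 3328 FPKM) were present in every condition, *Cd209a* being listed at 0 in 1 of them. The other lists varied, neutrophil markers (12 genes) from 1459 to 20139 FPKM, macrophage markers (11 genes) from 98.0 to 505 FPKM, mast cell and basophil markers (9 genes) from 56.4 to 263 FPKM, and T and NK cell markers (11 genes) from 1.62 to 1085 FPKM. Most of each neutrophil sum came from *S100a8* and *S100a9*.

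**Figure D1:**
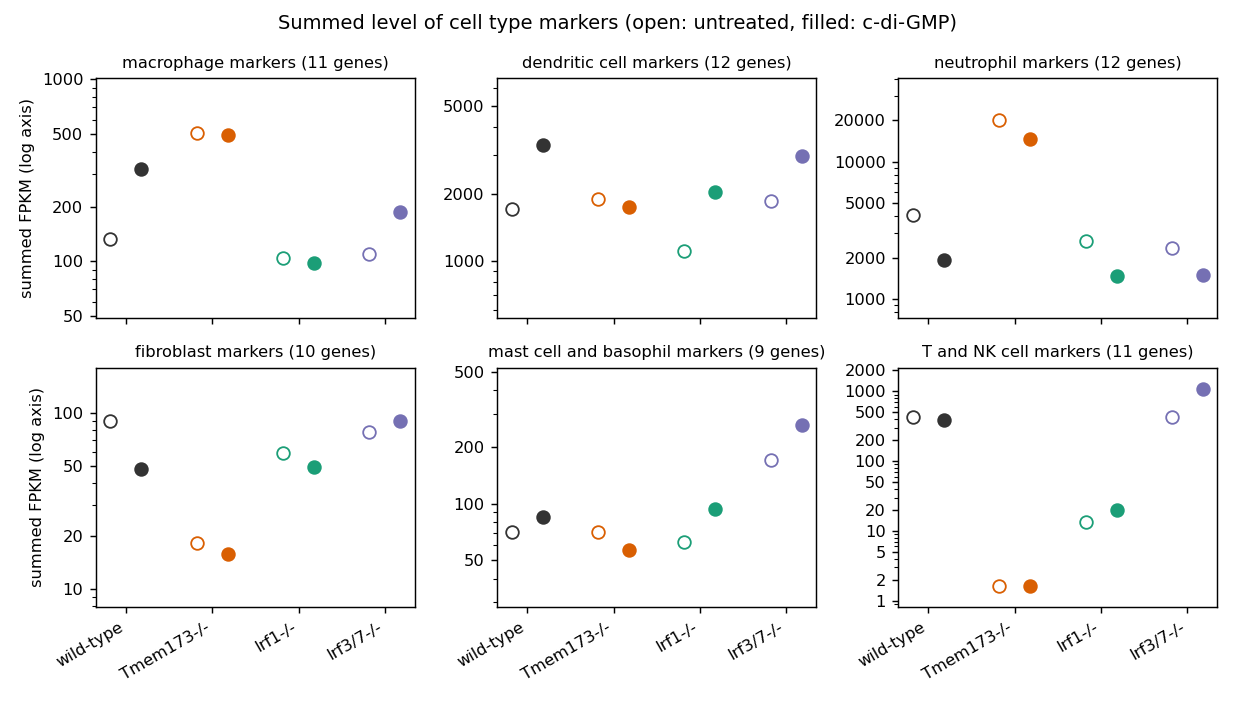
Summed FPKM (vertical log axis) of 6 lists of cell type markers in the 4 genotypes, with open points for untreated and filled points for c-di-GMP-treated BMDCs. Neutrophil markers, mostly *S100a8* and *S100a9*, stood at 20139 and 14636 FPKM in *Tmem173*-/- BMDCs and at no more than 4107 FPKM in any other condition. Mast cell and basophil markers were highest in treated *Irf3/7*-/- BMDCs at 263 FPKM.

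After c-di-GMP, wild-type BMDCs had less of the elastase, the gelatinase and fibronectin, and more of the membrane enzyme, of *Mmp19* and of 2 inhibitors. *Mmp14*, *Mmp19*, *Timp1* and *Timp3* rose and *Mmp9*, *Mmp12* and *Fn1* fell, so that 7 of the 9 members tested were called, where 20.5% of all genes tested were (10.5% higher and 9.96% lower). The *Tmem173*-/- cultures had none of 8 members called between treated and untreated cells, where 0.0552% of all genes were called. Without IRF1, 5 of 9 were called (17.5% of all genes), namely *Mmp13*, *Timp1* and *Timp3* upward and *Mmp9* and *Fn1* downward. Without IRF3 and IRF7, 4 of 9 were called (17.9% of all genes), with *Mmp13*, *Mmp19* and *Timp3* higher and *Fn1* lower after treatment. *Timp3* was the 1 member that rose in all 3 genotypes that have STING, and *Fn1* the 1 member that fell in all 3.

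**Figure D2:**
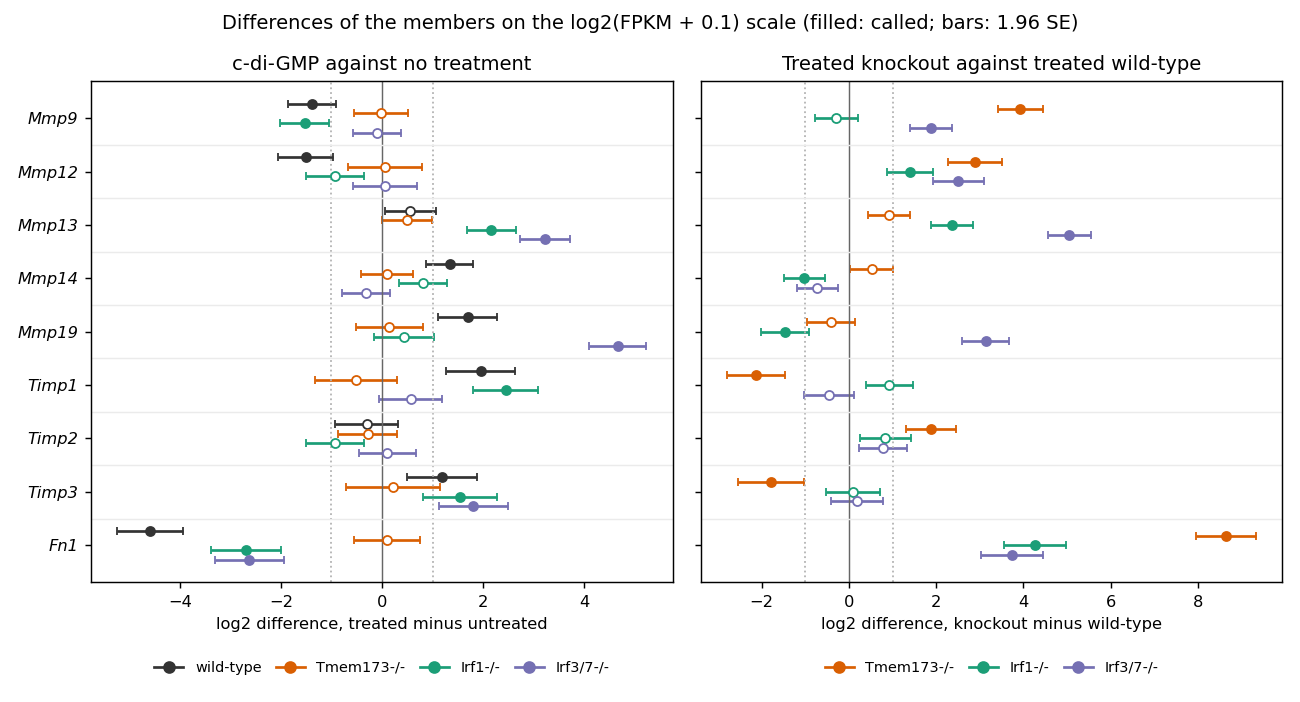
Differences of 9 members on the log2(FPKM + 0.1) scale, treated minus untreated BMDCs on the left and treated knockout minus treated wild-type BMDCs on the right, coloured by genotype. Bars span 1.96 SE either way, filled points were called and dotted lines mark a 2-fold difference. The *Tmem173*-/- points on the left all lie between -0.52 and 0.49, and *Fn1* reaches 8.64 on the right.

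Set against treated wild-type BMDCs, treated *Tmem173*-/- BMDCs had 6 of 9 members called (26.3% of all genes), with *Mmp9*, *Mmp12*, *Timp2* and *Fn1* higher and *Timp1* and *Timp3* lower. Treated *Irf1*-/- BMDCs had 5 called (7.56% of all genes), with *Mmp12*, *Mmp13* and *Fn1* higher and *Mmp14* and *Mmp19* lower. Treated *Irf3/7*-/- BMDCs had 5 called (7.30% of all genes, 4.61% higher), and *Mmp9*, *Mmp12*, *Mmp13*, *Mmp19* and *Fn1* were all higher. Some of these differences were there without stimulation. Untreated *Tmem173*-/- BMDCs had 6 members higher than untreated wild-type BMDCs and none lower (11.0% of all genes called, 5.04% higher), untreated *Irf1*-/- BMDCs had *Timp2* and *Fn1* higher (4.78% of all genes, 1.26% higher), and untreated *Irf3/7*-/- BMDCs had *Mmp13* and *Fn1* higher (2.04% of all genes, 1.17% higher). These comparisons share the wild-type conditions, so their counts are not independent of each other. *Fn1* was called in each of the 6 comparisons between a knockout and wild-type. The response itself, treated minus untreated, differed from the wild-type one by more than 1 log2 unit, with an interval of the difference that left out 0, for 6 members in *Tmem173*-/- (19.3% of all genes), 3 in *Irf1*-/- (3.73%) and 7 in *Irf3/7*-/- BMDCs (4.98%). *Fn1* drops out of the last 2 counts with a pseudocount of 1.

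**Figure D3:**
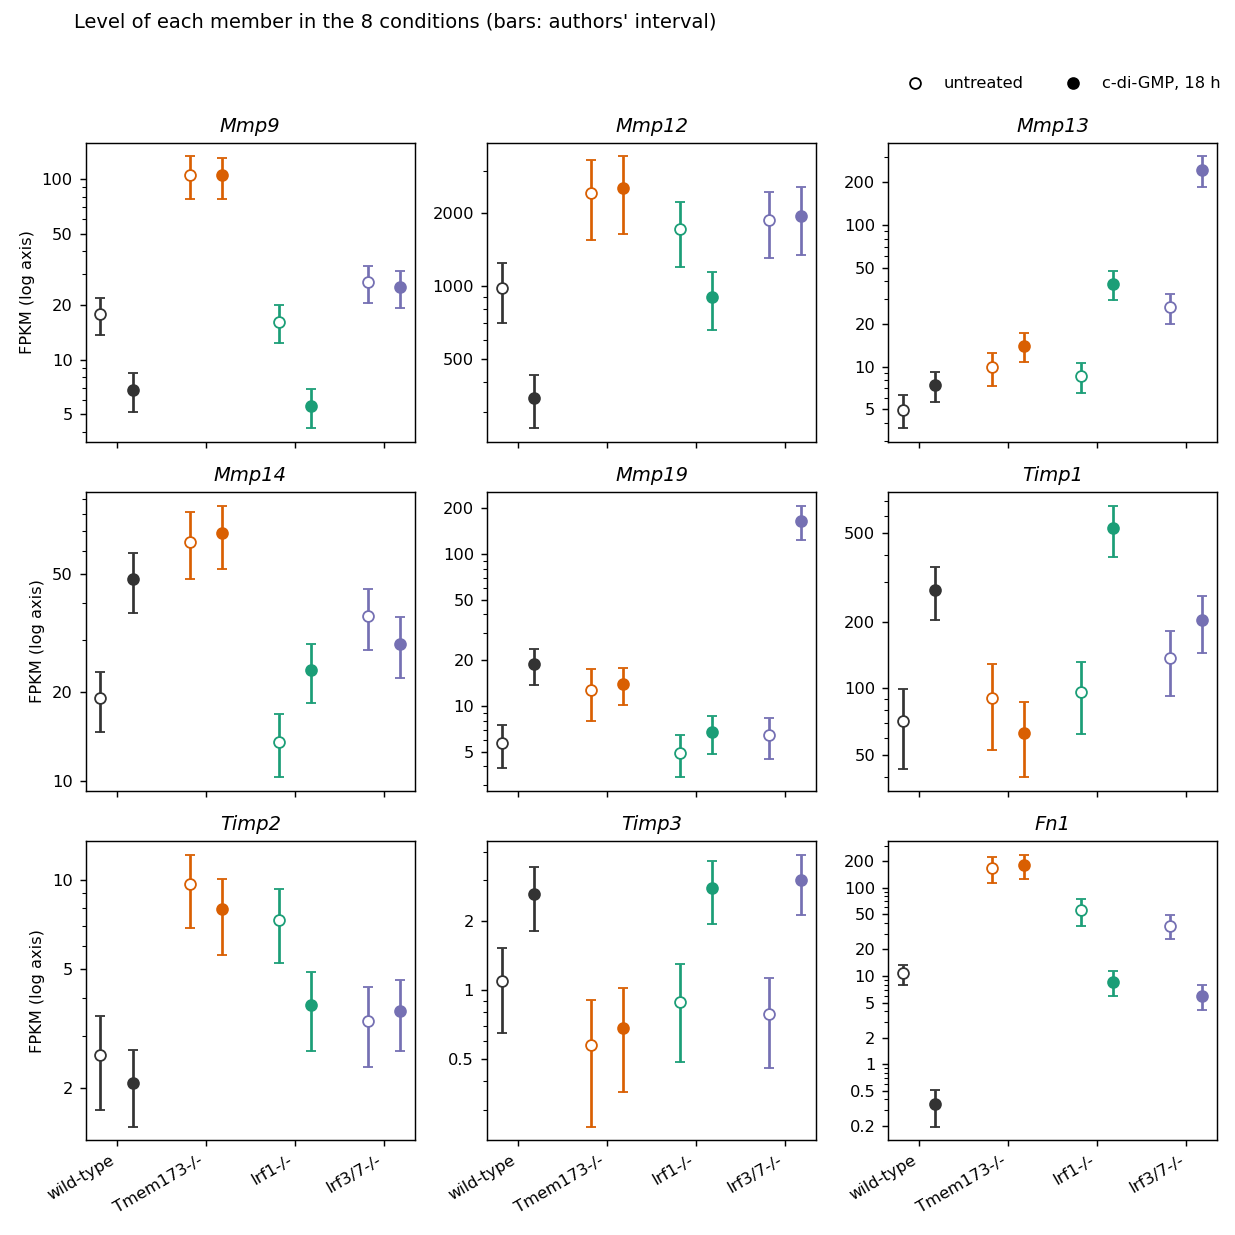
FPKM (vertical log axis, its own range in each panel) of 9 members in the 4 genotypes, open points for untreated and filled points for c-di-GMP-treated BMDCs, with the interval of the deposited table as bars. *Mmp13* and *Mmp19* stand apart in treated *Irf3/7*-/- BMDCs at 246 and 166 FPKM, and *Fn1* is lowest in treated wild-type BMDCs at 0.350 FPKM.

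Macrophage elastase, *Mmp12* (GRCm38 chr9:7344381-7369499, plus strand), was the most abundant member in every condition. Its level in wild-type BMDCs was 977 FPKM (702 to 1238) untreated and 343 FPKM (258 to 426) treated, a log2 difference of -1.51 (SE 0.28). *Tmem173*-/- BMDCs held 2431 FPKM (1547 to 3316) and 2538 FPKM (1642 to 3434), and *Irf3/7*-/- BMDCs 1876 FPKM (1301 to 2450) and 1952 FPKM (1341 to 2562). In neither knockout did the treated and untreated intervals separate. Without IRF1 the level was 1712 FPKM (1202 to 2220) untreated and 899 FPKM (657 to 1138) treated, with intervals apart but a log2 difference of -0.93 that missed the 2-fold limit. Treated wild-type BMDCs thus had the lowest level of the 8 conditions, and the only interval that lay apart from its neighbour in the order of levels. Against it, the treated level was higher by 2.89 (SE 0.32) in *Tmem173*-/-, 2.51 (SE 0.29) in *Irf3/7*-/- and 1.39 (SE 0.27) in *Irf1*-/- BMDCs on the log2 scale. Among untreated BMDCs only *Tmem173*-/- was called against wild-type, by 1.32 (SE 0.34). *Mmp1b*, whose exons overlap those of *Mmp12* by 157 bases on the opposite strand, reached no more than 0.0205 FPKM.

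Gelatinase B, *Mmp9* (chr2:164940780-164955850, plus strand), which cuts denatured collagen and collagen IV, was at 17.9 FPKM (13.8 to 21.9) in untreated and 6.78 FPKM (5.13 to 8.45) in treated wild-type BMDCs. *Irf1*-/- BMDCs were close to this at 16.2 FPKM (12.4 to 20.0) and 5.52 FPKM (4.18 to 6.87). The log2 response was -1.38 (SE 0.24) in wild-type and -1.53 (SE 0.25) in *Irf1*-/- BMDCs, and their difference, -0.15, had an interval from -0.83 to 0.53. Without IRF3 and IRF7 the levels overlapped, at 26.9 FPKM (20.6 to 33.2) untreated and 25.2 FPKM (19.4 to 31.1) treated. In *Tmem173*-/- BMDCs the level was 105.7 FPKM (77.4 to 133.7) and 104.8 FPKM (77.8 to 130.8), above all other conditions with intervals apart. The excess over wild-type was 2.56 (SE 0.26) before and 3.93 (SE 0.26) after treatment on the log2 scale.

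Neutrophils also store MMP9 and MMP8 in their granules, and neutrophil markers were high in the same cultures. Of the 12 markers, 9 were higher and 1 lower before treatment when *Tmem173*-/- was set against wild-type, and 10 were higher and none lower after treatment, the sums being 20139 against 4107 FPKM and 14636 against 1927 FPKM. Most of these sums came from *S100a8* and *S100a9*, at 10351 and 8336 FPKM in untreated *Tmem173*-/- BMDCs. The *S100a8* value lay above its own interval in every condition. No marker of this list was at 0 in any condition. Macrophage markers were summed at 505 against 132 FPKM untreated and 493 against 321 FPKM treated, with 5 of 9 tested higher and none lower before treatment, and 4 higher and 1 (*Mertk*) lower after it. Most of these macrophage sums came from *Cd14* and *Csf1r*. *Cd14* was at 181 and 151 FPKM in untreated and treated *Tmem173*-/- BMDCs, and rose from 18.5 to 181 FPKM in wild-type BMDCs. *Csf1r* was at 194 and 204 FPKM in *Tmem173*-/- and at 54.3 and 48.6 FPKM in wild-type BMDCs. The part of neutrophils and macrophages in the levels of *Mmp9*, *Mmp12* and *Fn1* was not tested.

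Collagenase 3, *Mmp13* (chr9:7272514-7283331, plus strand), which cuts fibrillar collagens, was the member with the highest difference between treated *Irf3/7*-/- and treated wild-type BMDCs. It was at 4.96 FPKM (3.67 to 6.24) in untreated and 7.35 FPKM (5.57 to 9.13) in treated wild-type BMDCs, whose intervals overlapped. In *Tmem173*-/- BMDCs it was at 9.89 FPKM (7.33 to 12.5) and 14.0 FPKM (10.8 to 17.2), which also overlapped. A rise was called in the other two genotypes. Without IRF1 it was at 8.51 FPKM (6.45 to 10.6) untreated and 38.4 FPKM (29.4 to 47.4) treated, a log2 difference of 2.16 (SE 0.25), and without IRF3 and IRF7 at 26.3 FPKM (20.0 to 32.4) and 246 FPKM (187 to 305), a difference of 3.22 (SE 0.25). The treated *Irf3/7*-/- level was 33.1-fold that of treated wild-type BMDCs, and the interval of this condition lay apart from the next in order, treated *Irf1*-/-. Untreated *Irf3/7*-/- BMDCs were already 5.21-fold above untreated wild-type BMDCs.

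Mast cell and basophil markers were higher in *Irf3/7*-/- BMDCs as well, 6 of 7 tested without and 7 of 7 tested with c-di-GMP, the sums of the 9 genes being 171 against 70.3 FPKM and 263 against 84.5 FPKM. *Mcpt4* was at 0 in 7 conditions and *Tpsb2* in 3. Summed T and NK cell markers were 432 FPKM in untreated *Irf3/7*-/- against 431 FPKM in untreated wild-type BMDCs, and 1085 against 385 FPKM after treatment. *Gzma* alone held most of these sums, at 315 against 349 FPKM untreated and 900 against 329 FPKM treated. By gene, 1 of 9 tested (*Klrb1c*) was higher in *Irf3/7*-/- BMDCs untreated and 8 of 8 tested were higher treated. In *Irf1*-/- BMDCs, where *Mmp13* also rose, the mast cell and basophil sum was 62.5 and 94.0 FPKM and the T and NK cell sum 13.3 and 20.2 FPKM. Markers of fibroblasts, a classical source of collagenase 3, were under 1 FPKM throughout for 8 of 10 genes, with *Lum* at 0 in 5 conditions. The exceptions were *Thy1*, which T cells also express and which reached 89.5 FPKM, and *Col1a2*. The part of any of these cells in the *Mmp13* level was not tested.

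*Mmp13* and *Mmp12*, by the gene bounds given above, lie 61.05 kb apart in a cluster of metalloproteinase genes on chromosome 9. Both *Mmp13* and the downstream RefSeq start of *Mmp12* have 1 copy of the AP-1 letters TGANTCA in the 250 bases before them. The upstream *Mmp12* start has none. Of 10 metalloproteinase genes of the table on that chromosome, *Mmp13*, *Mmp12* and *Mmp8* reached 1 FPKM in some condition. The strands shown are those of the genes, from RefSeq on GRCm38.p6. Of 32851 promoter windows, each read over the 250 bases before a start, 6.75% hold the AP-1 letters on either strand. Promoter windows were matched for 7 of the 10 members. Both sequences are shown because the genes are neighbours and *Mmp13* rose in *Irf1*-/- and *Irf3/7*-/- BMDCs, where *Mmp12* was not called, and capitals mark every match.
Mmp13, chr9:7272264-7272513: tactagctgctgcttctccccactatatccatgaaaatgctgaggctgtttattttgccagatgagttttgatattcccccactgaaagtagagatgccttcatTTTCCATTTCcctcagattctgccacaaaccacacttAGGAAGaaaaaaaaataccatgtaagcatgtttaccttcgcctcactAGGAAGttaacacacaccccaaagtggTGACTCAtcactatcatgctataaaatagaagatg
Mmp12, chr9:7347124-7347373: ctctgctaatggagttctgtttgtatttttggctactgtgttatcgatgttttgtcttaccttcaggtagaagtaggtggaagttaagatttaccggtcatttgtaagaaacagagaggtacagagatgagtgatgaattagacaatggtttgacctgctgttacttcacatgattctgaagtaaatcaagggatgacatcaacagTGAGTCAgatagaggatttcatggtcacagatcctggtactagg
In the *Mmp13* sequence the capitals are, in order, TTTCCATTTC at 146 to 137 bases before the start, which on the other strand reads GAAA, 2 further bases and GAAA, the form searched for IRF proteins, AGGAAG at 109 to 104 and at 62 to 57 bases, the letters of ETS proteins of the PEA3 group, and TGACTCA at 35 to 29 bases. In the *Mmp12* sequence TGAGTCA stands at 44 to 38 bases. The IRF letters are held by 2.98% and the PEA3 letters by 29.5% of all windows, and no match overlapped another. RefSeq places a further *Mmp12* start upstream, whose window holds 1 PEA3 and 1 NF-κB match. A match of letters is a description and not a site of binding.

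*Mmp19* (chr10:128790910-128800824, plus strand), a secreted enzyme of basement membrane proteins, showed the steepest rise of the family. It was at 5.72 FPKM (3.92 to 7.52) in untreated and 18.8 FPKM (13.8 to 23.8) in treated wild-type BMDCs, a log2 difference of 1.70 (SE 0.30). Without IRF3 and IRF7 it began at 6.41 FPKM (4.50 to 8.32), within the wild-type interval, and reached 166 FPKM (123 to 208), a difference of 4.67 (SE 0.29) or 25.4-fold. Without IRF1 it was at 4.93 FPKM (3.39 to 6.46) and 6.74 FPKM (4.86 to 8.61), with overlapping intervals. The treated level was therefore 8.77-fold above treated wild-type without IRF3 and IRF7 and 2.76-fold below it without IRF1. The *Tmem173*-/- levels were 12.7 FPKM (7.93 to 17.5) and 14.0 FPKM (10.2 to 17.8), of which the untreated level was higher than in wild-type BMDCs by 1.14 (SE 0.36) on the log2 scale.

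The end of *Mmp19* runs into *Tmem198b* on the opposite strand, and their exons overlap by up to 789 bases. *Tmem198b* was at 7.54, 12.7, 14.2, 10.3, 5.98 and 5.50 FPKM in untreated and treated wild-type, *Tmem173*-/- and *Irf1*-/- BMDCs, and at 7.18 and 71.4 FPKM in untreated and treated *Irf3/7*-/- BMDCs. Its high value fell in the same condition as that of *Mmp19*. The libraries keep the strand, and the study names a strand-specific mode for SeqMonk, but the setting of the Cuffdiff run behind this table is not given in the sources used here, so reads of the shared bases cannot be assigned to either gene, and the 2 profiles cannot be told apart there.

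*Mmp14* (chr14:54431612-54445364, plus strand) encodes the membrane-anchored enzyme that cuts collagen at the cell surface and activates pro-MMP2 together with TIMP2. Wild-type BMDCs had 19.0 FPKM (14.7 to 23.4) untreated and 48.2 FPKM (37.1 to 59.3) treated, a rise with a log2 difference of 1.34 (SE 0.24). Without IRF1 the levels were 13.5 FPKM (10.3 to 16.8) and 23.7 FPKM (18.3 to 29.2), whose intervals were apart, with a log2 difference of 0.81 (SE 0.24). Without IRF3 and IRF7 they were 36.1 FPKM (27.7 to 44.6) and 29.2 FPKM (22.4 to 35.9), which overlapped. The *Tmem173*-/- levels were high throughout, at 64.6 FPKM (48.1 to 81.1) and 69.1 FPKM (52.1 to 85.5), and untreated they were above untreated wild-type BMDCs by 1.76 (SE 0.25). After treatment the *Irf1*-/- level was 2.03-fold below wild-type, close to the limit of a call. In the order of levels of *Mmp14* every condition overlapped the next. *Mmp27* (chr9:7571396-7581885, plus strand) was never above 0.10 FPKM and was listed at 0 in treated *Irf1*-/- BMDCs, so it was not tested in any comparison.

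*Timp1* (chrX:20870166-20874735, plus strand), a secreted inhibitor that also forms a complex with pro-MMP9, made up 88.0% to 98.8% of the summed TIMP level. Wild-type BMDCs had 71.4 FPKM (43.4 to 99.4) untreated and 277 FPKM (202 to 352) treated, a log2 difference of 1.96 (SE 0.35). Without IRF1 the log2 difference was 2.45 (SE 0.33), with 96.6 FPKM (62.2 to 131) before and 528 FPKM (390 to 666) after c-di-GMP. The treated *Irf1*-/- level was the highest of all conditions, with an interval apart from that of treated wild-type BMDCs, though at 1.90-fold it was not called. In *Irf3/7*-/- BMDCs it was at 137 FPKM (92.6 to 181) and 202 FPKM (145 to 260), with overlapping intervals and a log2 difference of 0.57 (SE 0.32). In *Tmem173*-/- BMDCs it was at 90.6 FPKM (52.6 to 129) and 63.2 FPKM (39.8 to 86.6), and their treated level was 4.38-fold below that of treated wild-type BMDCs. *Timp1* lies within an intron of *Syn1*, which is on the other strand, shares no exon bases with it and was at 3.98 to 14.8 FPKM.

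The sequence before the *Timp1* start is shown as the promoter of the inhibitor that accounts for most of the TIMP level, and its capitals mark 2 matches of the PEA3 letters AGGAAG, at 175 to 170 and 99 to 94 bases before the start.
Timp1, chrX:20869916-20870165: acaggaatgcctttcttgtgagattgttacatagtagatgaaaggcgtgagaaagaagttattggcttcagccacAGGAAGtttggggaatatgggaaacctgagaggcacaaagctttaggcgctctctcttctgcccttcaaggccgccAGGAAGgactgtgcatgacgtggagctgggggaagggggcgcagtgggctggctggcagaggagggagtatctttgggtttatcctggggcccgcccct
Neither the AP-1 nor the IRF letters as searched occur in this stretch.

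*Timp3* (chr10:86300372-86349506, plus strand), the inhibitor that binds to the matrix, was low but rose in each genotype with STING. Its level went from 1.09 FPKM (0.650 to 1.52) to 2.62 FPKM (1.80 to 3.44) in wild-type, from 0.888 FPKM (0.484 to 1.29) to 2.79 FPKM (1.93 to 3.65) in *Irf1*-/- and from 0.787 FPKM (0.457 to 1.12) to 3.0 FPKM (2.12 to 3.88) in *Irf3/7*-/- BMDCs. The 3 treated levels overlapped each other. In *Tmem173*-/- BMDCs the levels were 0.575 FPKM (0.254 to 0.903) and 0.686 FPKM (0.360 to 1.02), below the limit for a test. *Timp3* lies inside *Syn3* on the opposite strand and up to 1733 exon bases are shared, *Syn3* being at 0.465 to 1.05 FPKM, so part of these low values cannot be assigned. Calls of *Timp3* were lost when 5 FPKM was required.

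*Timp2* (chr11:118301069-118355740, minus strand), which inhibits MMP2 and also helps MMP14 to activate it, did not pass the rule in any of the 4 responses. Wild-type BMDCs had 2.59 FPKM (1.69 to 3.48) untreated and 2.08 FPKM (1.49 to 2.68) treated. Levels were higher in *Tmem173*-/- BMDCs, at 9.69 FPKM (6.91 to 12.1) untreated and 7.94 FPKM (5.60 to 10.0) treated, and in untreated *Irf1*-/- BMDCs, at 7.34 FPKM (5.27 to 9.28). Treated *Irf1*-/- BMDCs had 3.80 FPKM (2.67 to 4.90), with an interval apart from the untreated one but a 1.91-fold difference. The *Irf3/7*-/- levels, 3.37 FPKM (2.36 to 4.38) and 3.64 FPKM (2.66 to 4.62), overlapped with those of wild-type BMDCs in both states.

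Summed levels of inhibitor and enzyme transcripts moved in opposite directions in wild-type and *Irf1*-/- BMDCs. The TIMP sum rose from 75.0 to 282 FPKM and the metalloproteinase sum went from 1024 to 424 FPKM on treatment of wild-type BMDCs, so that the ratio of TIMP to metalloproteinase FPKM was 0.0733 untreated and 0.666 treated. Without IRF1 the ratios were 0.0597 and 0.549, with sums of 105 and 534 FPKM for the TIMPs and 1755 and 974 FPKM for the enzymes. In *Irf3/7*-/- BMDCs both sums were larger after treatment, at 141 and 209 FPKM and at 1972 and 2418 FPKM. The ratio was 0.0715 and 0.0865 in *Irf3/7*-/- and 0.0384 and 0.0262 in *Tmem173*-/- BMDCs. *Mmp12* held 80.7% to 97.5% of the enzyme sum, so these ratios mostly set *Timp1* against *Mmp12*. The enzyme sum without *Mmp12* was larger after treatment in wild-type (47.6 and 81.2 FPKM) and *Irf1*-/- BMDCs (43.2 and 74.4 FPKM), as the TIMP sum was. Without *Mmp12* the ratio was 1.58 and 3.47 in wild-type, 2.43 and 7.18 in *Irf1*-/-, 1.47 and 0.448 in *Irf3/7*-/- and 0.523 and 0.355 in *Tmem173*-/- BMDCs. It then went up with treatment in wild-type and *Irf1*-/- BMDCs and down in the other two genotypes. The enzyme sums cover the 6 member genes only. *Mmp25* (19.5 and 55.4 FPKM in untreated and treated wild-type BMDCs), *Mmp8*, *Mmp2* and *Mmp23* are not in them. The size of the ratios, above all without *Mmp12*, therefore depends on which genes were taken as members. Sums and ratios are of the deposited values and carry no error, and transcript levels do not give enzyme activity.

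**Figure D4:**
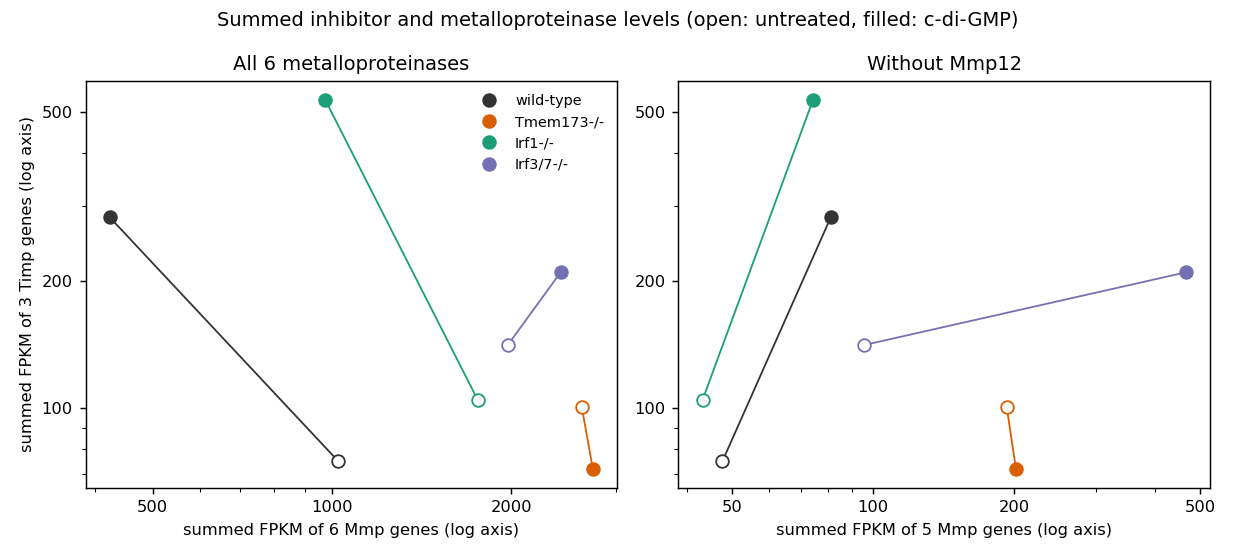
Summed FPKM of *Timp1*, *Timp2* and *Timp3* against summed FPKM of the 6 metalloproteinases (left) and of the 5 without *Mmp12* (right), both axes logarithmic, with a line from the untreated (open) to the treated (filled) condition of each genotype. On the left the wild-type line runs from 1024 and 75.0 FPKM to 424 and 282 FPKM, up and to the left, as does that of *Irf1*-/- BMDCs.

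*Fn1* (chr1:71585520-71653200, minus strand) had the widest range of the family. Wild-type BMDCs had 10.8 FPKM (7.86 to 13.5) untreated and 0.350 FPKM (0.197 to 0.512) treated, a log2 difference of -4.59 (SE 0.33) or 24.1-fold. It fell from 55.7 FPKM (37.3 to 74.6) to 8.56 FPKM (5.91 to 11.5) without IRF1, and from 37.1 FPKM (26.3 to 49.7) to 5.94 FPKM (4.14 to 7.96) without IRF3 and IRF7. Their log2 differences were -2.69 (SE 0.35) and -2.62 (SE 0.35), and both treated intervals overlapped that of untreated wild-type BMDCs. With no STING the levels were 168 FPKM (112 to 224) and 180 FPKM (125 to 236), the highest of all conditions, with no separation between them. Against treated wild-type BMDCs the treated level was higher by 8.64 (SE 0.35) in *Tmem173*-/-, 4.26 (SE 0.36) in *Irf1*-/- and 3.74 (SE 0.36) in *Irf3/7*-/- BMDCs on the log2 scale, and the untreated differences were 3.95 (SE 0.31), 2.36 (SE 0.32) and 1.77 (SE 0.32). Because treated wild-type BMDCs were at 0.350 FPKM, values set against them move with the pseudocount. With 1 FPKM in place of 0.1 the responses were -3.12 in wild-type, -2.57 in *Irf1*-/- and -2.46 in *Irf3/7*-/- BMDCs, and the treated differences 7.07, 2.82 and 2.36, all still called. The fall in the last 2 knockouts then no longer differed from the wild-type one by the limit of 1. *Apol7d*, which overlaps *Fn1* by 197 exon bases on the other strand, was no higher than 0.0536 FPKM. Of the 10 fibroblast markers 8 were under 1 FPKM throughout, and the list was divided. *Col1a1* (0.429 and 0.444 FPKM), *Lox* (0.346 and 0.431 FPKM), *Cxcl12* (0.177 and 0.177 FPKM), *Dcn* (0.143 and 0.173 FPKM) and *Col3a1* (0.0649 and 0.0954 FPKM) were each highest in *Tmem173*-/- BMDCs, where *Fn1* was highest too. *Lum* was at 0 in both *Tmem173*-/- conditions. *Col1a2* (6.78 FPKM) and *Pdgfra* (0.0214 FPKM) were highest in treated wild-type BMDCs, and *Pdgfrb* (0.211 FPKM) in untreated *Irf3/7*-/- BMDCs. The summed list, mostly *Thy1*, was lowest in *Tmem173*-/- BMDCs, at 18.1 FPKM untreated and 15.7 FPKM treated. The part of fibroblasts in the *Fn1* level was not tested.

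Several receptors that hold fibronectin rose in wild-type and *Irf1*-/- BMDCs, where *Fn1* fell. Of 13 listed genes 10 were tested in wild-type BMDCs, and 5 rose and 1 fell, where 20.5% of all genes were called. The 10 tested had a median log2 difference of 0.96 against 0.0033 over all genes tested. The integrin subunit *Itga5*, which pairs with *Itgb1* in the main fibronectin receptor, rose from 27.8 to 70.0 FPKM, and the co-receptor syndecan-4 (*Sdc4*) from 24.0 to 84.2 FPKM. *Itgav*, *Itga4* and *Itgb8* rose too and *Itgb3* fell from 17.6 to 7.18 FPKM. Without IRF1 these 6 genes were called in the same directions, with *Sdc4* reaching 201 FPKM, where 17.5% of all genes were called. Without IRF3 and IRF7, where *Fn1* fell too, 3 of 10 tested were higher and none lower (17.9% of all genes called). *Itga5* (31.5 and 50.5 FPKM), *Sdc4* (45.8 and 45.2 FPKM) and *Itgb3* (20.8 and 30.3 FPKM) were not called in *Irf3/7*-/- BMDCs. *Tmem173*-/- BMDCs had none called of 9 tested, where 0.0552% of all genes were called.

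Of 18 further genes, the other metalloproteinases and *Timp4*, 4 were tested in wild-type BMDCs. Gelatinase A (*Mmp2*), the substrate of MMP14, rose from 4.23 to 11.6 FPKM and the membrane-anchored *Mmp25* from 19.5 to 55.4 FPKM, while neutrophil collagenase (*Mmp8*) fell from 11.9 to 4.87 FPKM and *Mmp23* from 6.40 to 0.302 FPKM. *Mmp25* rose and *Mmp23* fell in *Irf1*-/- and *Irf3/7*-/- BMDCs as well, and neither was called in *Tmem173*-/- BMDCs. *Mmp8* was highest in *Tmem173*-/- BMDCs at 56.8 and 106 FPKM. Of 17 related ADAM and ADAMTS proteinases 8 were tested in wild-type BMDCs and none was called, where 20.5% of all genes were. *Adam8* was the most abundant of them at 249 to 461 FPKM over all conditions.

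Plasmin is an activator of several pro-MMPs, and some genes of its system were measured with the family. The inhibitors *Serpine2* and *Serpinb2* rose in wild-type BMDCs, from 2.45 to 5.77 FPKM and from 4.05 to 10.1 FPKM, and tissue plasminogen activator (*Plat*) rose from 0.0825 to 2.49 FPKM. Urokinase (*Plau*) fell from 89.5 to 38.5 FPKM in wild-type and from 126 to 46.7 FPKM in *Irf3/7*-/- BMDCs, and was at 203 and 144 FPKM in *Irf1*-/- BMDCs, which was not called. Treated *Irf3/7*-/- BMDCs had *Serpine2* at 33.2 FPKM and *Serpinb2* at 44.9 FPKM, both above treated wild-type BMDCs. None of these 4 genes was called in the *Tmem173*-/- response, where 0.0552% of all genes were.

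Among 10 listed activators and binding partners of the enzymes, 7 were tested in wild-type BMDCs and 4 rose, where 10.5% of all genes rose. *Furin*, the convertase that activates pro-MMP14, rose from 38.6 to 80.1 FPKM, thrombospondin-1 (*Thbs1*) from 27.7 to 176 FPKM, and the clearance receptor *Lrp1* and the inhibitor *Tfpi2* also rose. *Thbs1* was at 16.5 and 24.4 FPKM in *Irf1*-/- BMDCs, which was not called, and rose from 20.0 to 108 FPKM in *Irf3/7*-/- BMDCs. *Lcn2*, whose product binds MMP9, was at 115 and 160 FPKM in wild-type BMDCs, which was not called. In *Tmem173*-/- BMDCs, where *Mmp9* was also high, *Lcn2* was at 613 and 499 FPKM. It rose from 73.4 to 168 FPKM in *Irf3/7*-/- BMDCs, where the *Mmp9* response was not called. Of 21 other matrix proteins 7 were tested in wild-type BMDCs, and *Col1a2*, *Col4a2* and *Nid1* rose, none of them above 6.78 FPKM, while versican (*Vcan*) fell from 42.2 to 13.1 FPKM. Versican fell in *Irf3/7*-/- BMDCs too, from 62.1 to 13.2 FPKM, and was at 41.5 and 23.1 FPKM in *Irf1*-/- BMDCs, which was not called. No gene of these last 2 lists was called in the *Tmem173*-/- response, where 0.0552% of all genes were.

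The genes with the most similar profiles were found among 7382 genes by the root mean square distance of centred log2 levels over the 8 conditions. *Mmp8* was nearest to *Mmp9* at 0.37, followed by *Il1r2* at 0.47 and *Prkcb* at 0.51. *Parvb*, *Pira2* and *Ms4a3* lay nearest to *Mmp12* at 0.34 to 0.40, *Cmklr1*, *Ppt2* and *Csf3r* nearest to *Mmp14* at 0.21 to 0.34, and *Cpne2*, *Dusp1* and *Slc25a22* nearest to *Timp1* at 0.31 to 0.34. *Mmp19* was closest to *Tmem198b* at 0.51, the gene it overlaps. The nearest profiles lay farther off for *Mmp13*, namely *Clcf1*, *Npy* and the mast cell and basophil marker *Fcer1a* at 0.93 to 0.96, and for *Fn1*, namely *Elane*, *Galnt9* and *Mrc1* at 1.09 to 1.12. Distances were not scaled to the spread of a gene's own profile, which was 2.68 for *Fn1* and 1.69 for *Mmp13*. It was 0.783 (*Mmp14*) to 1.54 (*Mmp19*) for the other members given here. *Elane* is a neutrophil and *Mrc1* a macrophage marker of the lists above. Untreated and treated, *Elane* was at 2.45 and 0.687 FPKM in wild-type and at 40.8 and 31.4 FPKM in *Tmem173*-/- BMDCs. It was called in none of the 10 comparisons, because its intervals overlapped even where it differed by more than 2-fold.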

How the data were processed

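Stranded mRNA libraries were sequenced as 35-bp pairs, and the authors deposited 1 table in which Cuffdiff (1.06 in the submitters' processing notes) gave each condition an FPKM, an interval and a status, with the replicates combined. Another knockout has 1 FPKM column in the table, which was left out. The notes name mm9, but 98.953% of 21681 name-matched loci overlap the same gene of GENCODE M21 on GRCm38, so GRCm38 coordinates are given. Not given in the sources used here are the aligner, the annotation and whether the Cuffdiff run used strand.

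The members and lists were chosen with earlier results of these data known. FPKM as deposited were transformed as log2(FPKM + 0.1). A gene was tested at 1 FPKM or more in one condition with status OK in both, and called at over 2-fold with intervals apart, in 10 comparisons. The SE is the larger arm of an interval divided by 1.96, propagated to the log2 scale. The call rule was tried on simulated data with large changes and noise taken from the intervals alone. That trial does not bear on calls near the 2-fold limit or at low levels. One listed gene and the counts of its list are not reported here. Named genes are the members, the targeted genes, from each list up to 4 genes with the largest change among those called in the wild-type response and those needed to account for the list, overlapping genes, and the 3 nearest profiles among genes reaching 10 FPKM in some condition. Motif matches were read on both strands. Depth cannot be read from FPKM. For 4710 genes at 10 FPKM or more everywhere the larger arm was 25.7% to 26.3% of the value in the median. Alternatives were another pseudocount, other minimum levels, median centring, the fold alone and a z value from the intervals. Python 3.11.15, pandas 2.3.3 and numpy 2.4.6 were used.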

Additional observations from a re-analysis of the deposited data

Results flagged for a closer look

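The response to c-di-GMP (treated minus untreated, log2) was compared between each knockout and wild-type BMDCs, and a member is given here where the responses differed by more than 1 and the interval of the difference, built from the authors' intervals, did not hold 0. This is not a test on replicates. Values are knockout minus wild-type.

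The *Fn1* response was less negative in every knockout than in wild-type BMDCs, by 4.69 (3.77 to 5.62) in *Tmem173*-/-, 1.91 (0.96 to 2.85) in *Irf1*-/- and 1.97 (1.02 to 2.91) in *Irf3/7*-/-. With a pseudocount of 1, an alternative chosen after seeing the data, the differences were 3.22 (2.46 to 3.99), 0.56 (-0.21 to 1.32) and 0.67 (-0.08 to 1.42), so that the last 2 miss both limits. For *Mmp9*, which fell in wild-type BMDCs, the difference was 1.37 (0.65 to 2.09) in *Tmem173*-/- and 1.29 (0.62 to 1.96) in *Irf3/7*-/-, and for *Mmp12* it was 1.57 (0.66 to 2.48) and 1.57 (0.74 to 2.40) in the same genotypes. The *Mmp14* response differed by -1.24 (-1.93 to -0.55) in *Tmem173*-/- and -1.64 (-2.31 to -0.98) in *Irf3/7*-/- BMDCs.

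*Mmp19* is the member whose difference took opposite signs, -1.56 (-2.44 to -0.67) in *Tmem173*-/-, -1.25 (-2.09 to -0.42) in *Irf1*-/- and 2.97 (2.16 to 3.79) in *Irf3/7*-/-. Its exons overlap those of *Tmem198b*, and shared reads cannot be assigned. *Mmp13* gave 1.60 (0.91 to 2.30) in *Irf1*-/- and 2.67 (1.97 to 3.37) in *Irf3/7*-/-. *Timp1* gave -2.48 (-3.53 to -1.42) in *Tmem173*-/- and -1.39 (-2.32 to -0.47) in *Irf3/7*-/-, while in *Irf1*-/- its difference of 0.49 had an interval from -0.44 to 1.43. These comparisons share the wild-type conditions.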

How the results depend on the processing

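No paired analysis was possible because the deposited table gives 1 value per condition and its columns carry no replicate number, and for the same reason no sample could be left out. Of 534 recomputed values 528 kept their direction and their side of the limits, and none reversed. Only members already tested were recomputed, so the 89 values with no minimum could not change. The fold alone could add calls but not lose any. Every change of a member's call lay with *Timp3* or *Mmp14*: at 5 FPKM or more *Timp3* was no longer tested in the wild-type, *Irf1*-/- and *Irf3/7*-/- responses or in treated *Tmem173*-/- against treated wild-type BMDCs, and with a pseudocount of 1 its wild-type response was 0.79 and the treated *Irf1*-/- difference of *Mmp14* was -0.99 on the log2 scale. Counts over all genes moved more: in the *Tmem173*-/- response from 6 to 1 with a pseudocount of 1, 10 with no minimum, 83 by the fold alone and 16 by z. A minimum of 5 FPKM left 538 of 838 (treated *Irf1*-/-), 460 of 818 (treated *Irf3/7*-/-), 800 of 1221 (untreated *Tmem173*-/-), 323 of 527 (untreated *Irf1*-/-) and 112 of 224 (untreated *Irf3/7*-/-) against wild-type BMDCs, where fewer genes were tested, and a pseudocount of 1 left 536 and 118 for *Irf3/7*-/- treated and untreated. Of the differences between responses, those of *Fn1* in *Irf1*-/- and *Irf3/7*-/- BMDCs were 0.56 and 0.67 with a pseudocount of 1 and lost their call, and the others kept theirs with that pseudocount, no minimum, a minimum of 5 FPKM and median centring, settings added after seeing the data. The intervals come from the quantification and could not be compared with replicates. In each condition 64 to 95 genes of at least 1 FPKM had a value outside their own interval. No member was among them, but the neutrophil marker *S100a8* was in every condition.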
